A study of Canis lupus familiaris with 8 samples.

Results

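The phosphoinositide 3-kinase (PI3K), AKT, mTOR and FOXO genes were followed in peripheral blood mononuclear cells (PBMCs) of 8 dogs. PBMCs are the blood fraction of lymphocytes and monocytes, from which neutrophils and red cells are largely removed. The list named 35 components of this pathway, and the choice was made with earlier results of these data known. By gene symbol 34 were found among 35048 gene rows, and all 34 had enough counts to be tested, among 20632 genes tested in all. PIK3R3, a regulatory subunit of PI3K, had no row under that symbol and was not analysed here. The obese group held 5 dogs, a Dachshund (dog 1), a Chihuahua (dog 2), Labrador retrievers (dogs 3 and 4) and a Welsh Corgi (dog 5). The normal group held 3 Beagles. No treatment, age or sex is given in the labels. Body condition and breed cannot be told apart here, because every normal dog and no obese dog was a Beagle.

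PI3K is recruited to activated receptors, such as those for insulin, cytokines and antigen, and phosphorylates a membrane lipid that draws AKT to the membrane, where PDK1 and mTOR complex 2 activate it. AKT inhibits the TSC complex, which releases the small GTPase RHEB to switch on mTOR complex 1, the kinase that drives protein synthesis when amino acids are also present. AKT also phosphorylates GSK3 and the FOXO transcription factors and so keeps FOXO proteins out of the nucleus. In lymphocytes this balance sets the switch between quiescence and growth, and in myeloid cells PI3K gamma acts downstream of chemokine receptors. The activity of these proteins is set largely by phosphorylation, which RNA counts do not measure.

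The libraries held 10264202 to 14910982 counts, of which the 34 genes took 0.252 to 0.443%. Levels are given as CPM, counts scaled to a common library size. Each transcript gives a tag near its poly(A) end, so no length correction was applied. Markers of T cells (12 of 12) and monocytes (9 of 10, with no row for FCN1) had counts in every dog. Of 10 neutrophil markers 9 had counts in every dog, while the receptor gene CXCR2 was at 0 in obese dogs 1 and 5 and normal dog 1. Obese dog 3 stood apart from the other obese dogs. Its summed T cell markers were 477 CPM, against 1046 to 1547 CPM in the other obese dogs and 376 to 465 CPM in the normal dogs. Its summed neutrophil markers were 7191 CPM, against 247 to 1001 CPM and 1727 to 7020 CPM. In both sums it was thus nearer to the normal dogs than to the other obese dogs. Not every T cell marker followed the sum. For 4 of the 12 (CD3D, CD3G, CD2 and LCK), obese dog 3 was above every normal dog, as were the other obese dogs. It had 37.1 CPM of CD3D and 88.6 CPM of LCK, above obese dog 1 at 26.4 and 76.1 CPM. Its summed erythroid markers were 1205 CPM, against 50 to 103 CPM in the other obese dogs and 36.6 to 42.3 CPM in the normal dogs. Results that rest on this dog are therefore given with and without it, in the text or in the plot of fold changes. Each library is labelled as a separate dog, and in such bulk samples fewer cells of a type and less RNA per cell cannot be told apart.

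With all 8 dogs, 0 of the 34 genes passed the threshold between obese and normal dogs in edgeR or DESeq2. With limma-voom and quality weights 9 passed, beside 9.15% of all genes higher and 9.96% lower. Of 20632 genes tested, 48 (0.233%) passed at an adjusted p under 0.05 (edgeR's quasi-likelihood test, Benjamini-Hochberg). The adjusted p-values of the 34 genes ran from 0.236 to 0.985. At an unadjusted p under 0.05, 3 of 34 were higher in the obese dogs and 0 were lower, where 9.01% of all genes were higher and 6.73% lower. The median log2 fold change, obese minus normal, was 0.21 over the 34 genes and 0.09 over all genes, and 23 of the 34 were positive (67.6%), as were 55.3% of all genes. With upper-quartile scaling these medians were 0.09 and −0.03, and 18 of the 34 were positive.

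INPP5D and RRAGC were above every normal dog in every obese dog, and GSK3B was below. These 2 of 34 and 1 of 34 stand beside 5.75% of all genes that were higher without overlap and 5.16% that were lower. With upper-quartile scaling the count of higher genes without overlap was 0, where 4.39% of all genes were higher. The heat map of all members shows where the dogs differ. Obese dog 3 was inside the range of the normal dogs in 13 of the 34 genes (38.2%, and 33.9% of all genes), and the other obese dogs in 7, 7, 12 and 8. It had the lowest value of the 8 dogs in 13 of the 34 genes, where it was lowest in 22.2% of all genes, and the highest in 5, where it was highest in 19.5%.

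**Figure D1:**
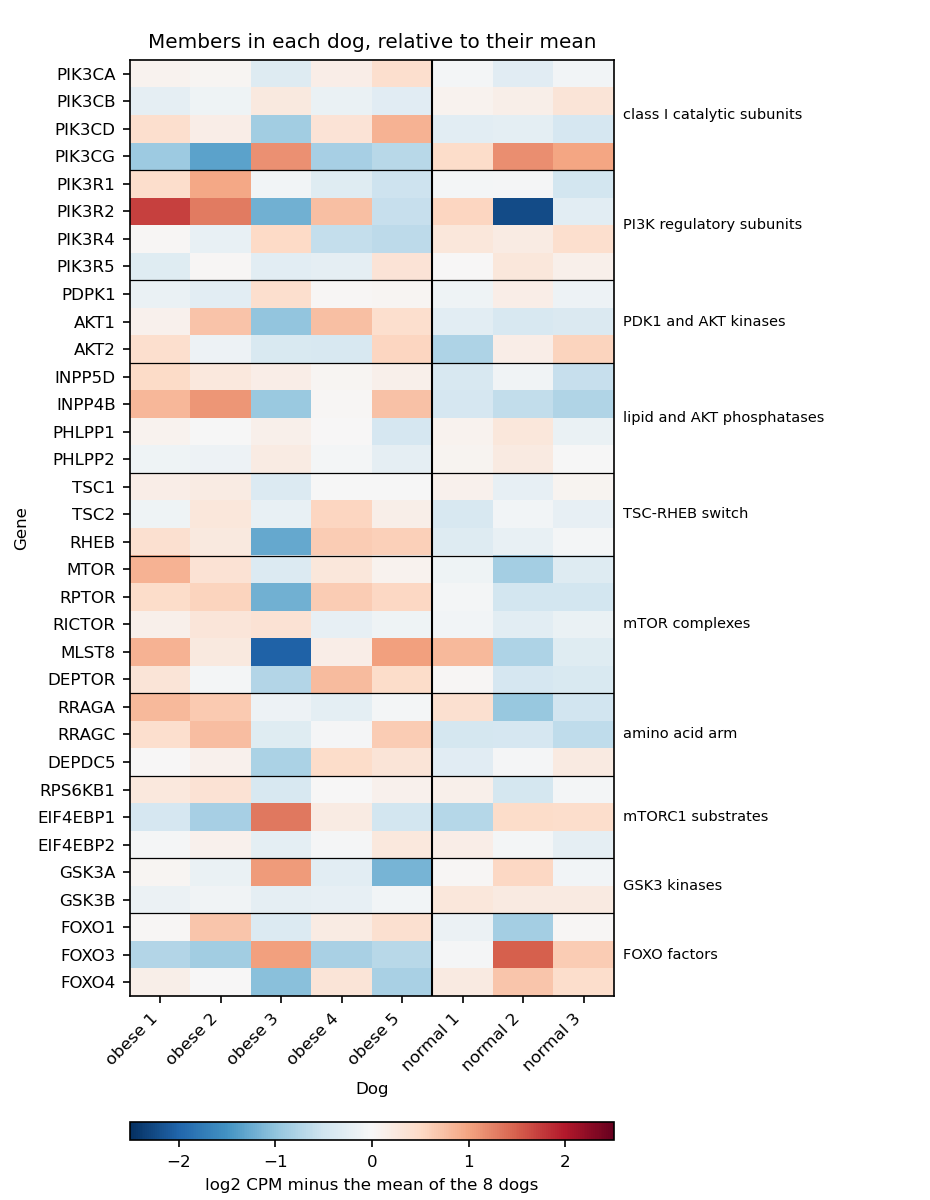
Level of the 34 measured genes (rows, grouped by role) in each of the 8 dogs (columns), as log2 CPM minus the gene's mean over the dogs, with red above and blue below that mean. PIK3CG and FOXO3 are red in obese dog 3 and in normal dogs 2 and 3 and blue in the other obese dogs, and RHEB, RPTOR and MLST8 are darkest blue in obese dog 3.

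Without obese dog 3, 4 of the 34 genes passed the threshold in edgeR. That dog was singled out by its values in these same libraries, so these calls depend on that choice. Leaving out any other dog gave 0 of the 34. In the fit without obese dog 3, RPTOR and INPP4B were higher and FOXO3 and PIK3CG lower in the 4 remaining obese dogs. In that fit 3.25% of all genes rose and 5.03% fell. Groups without overlap were then seen in 9 higher genes (PIK3CA, PIK3CD, AKT1, INPP4B, INPP5D, RHEB, MTOR, RPTOR and RRAGC), where 12.2% of all genes were higher, and in 6 lower genes (PIK3CB, PIK3CG, PIK3R4, PHLPP2, GSK3B and FOXO3), where 12.8% were lower. A limma-voom fit of all 8 dogs that weights each library by its quality called 6 of the 34 genes higher (PIK3CD, AKT1, RPTOR, RRAGC, INPP4B and INPP5D) and 3 lower (FOXO3, PIK3CG and PIK3R4), beside 9.15% and 9.96% of all genes. DESeq2 on all 8 dogs called 0 of the 34, where it called 2.97% of all genes higher and 2.11% lower. At an unadjusted p under 0.05 it had 4 of the 34 higher and 1 lower, beside 10.9% and 7.50% of all genes. The plot of fold changes sets both edgeR fits side by side.

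**Figure D2:**
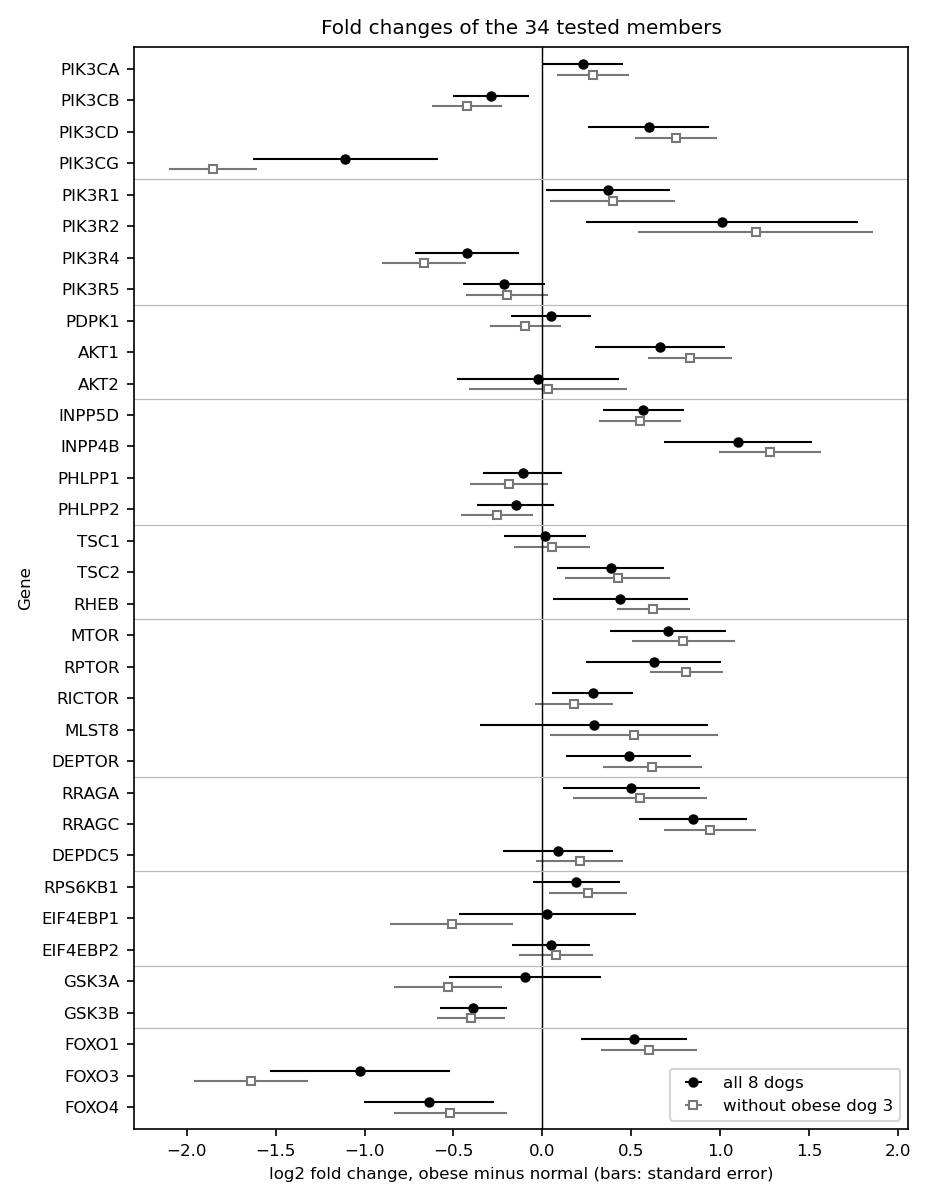
Log2 fold change, obese minus normal (x axis), of the 34 measured genes (y axis) from edgeR, with bars for the standard error. Filled circles use all 8 dogs and open squares leave out obese dog 3. PIK3CG moves from −1.11 to −1.85 and FOXO3 from −1.03 to −1.64, while RRAGC, INPP5D and GSK3B move by less than their standard error.

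The class I catalytic subunits are the kinases themselves. PIK3CG, the gamma isoform of leukocytes that chemokine receptors engage, had 32.6, 24.2, 135, 34.4 and 37.6 CPM in obese dogs 1 to 5 and 83.8, 137 and 119.9 CPM in normal dogs 1 to 3. Obese dog 3 lay at the level of normal dog 2, and the other 4 obese dogs lay below all normal dogs. The means were 52.7 ± 46.1 CPM (SD, n = 5) against 113 ± 27.0 CPM (SD, n = 3), and the difference did not pass (log2 fold change −1.11 with a standard error of 0.52, adjusted p = 0.342 by edgeR). Without obese dog 3, PIK3CG fell by 1.85 on the log2 scale (adjusted p = 0.00332, edgeR). An uncharacterised gene that overlaps PIK3CG in the reference annotation had 5672 counts over the 8 libraries against 7407 for PIK3CG. No source used here gives the strand setting of the counting, and the reads of both genes cannot be told apart.

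PIK3CD, the delta isoform on which lymphocyte antigen receptors depend, was high where PIK3CG was low. It had 192, 162, 78.8, 182 and 262 CPM in obese dogs 1 to 5 and 119, 121 and 107 CPM in normal dogs 1 to 3. The lowest of the 8 values was in obese dog 3, and the other obese dogs lay above every normal dog. The log2 fold change was 0.60 (adjusted p = 0.422, edgeR) and 0.75 without obese dog 3 (adjusted p = 0.0720, edgeR). PIK3CD overlaps a protein-coding gene without a characterised name that had 9375 counts against its 17070. The broadly expressed isoforms PIK3CA and PIK3CB spanned 64.4 to 108 and 142 to 218 CPM, with log2 fold changes of 0.23 and −0.29 that did not pass. Without obese dog 3 they were 0.29 and −0.42 (adjusted p = 0.393 and 0.194, edgeR).

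The 4 catalytic isoforms were also compared as shares of their summed counts, which do not depend on the scaling of the libraries. PIK3CG made up 7.11, 5.64, 27.8, 7.46 and 6.85% in obese dogs 1 to 5 and 18, 26.5 and 23.0% in normal dogs 1 to 3. PIK3CD made up 42.0, 37.6, 16.3, 39.5 and 47.7% in obese dogs 1 to 5 and 25.7, 23.6 and 20.5% in normal dogs 1 to 3. In obese dogs 1, 2, 4 and 5 PIK3CD therefore gave more than 5 times the counts of PIK3CG, and in obese dog 3 PIK3CG gave more counts than PIK3CD. Normal dogs 2 and 3 also had more PIK3CG than PIK3CD, and normal dog 1 had less. Over the groups PIK3CD took 36.6 ± 12% (SD, n = 5) in the obese and 23.3 ± 2.57% (SD, n = 3) in the normal dogs, and PIK3CA took 13.3 to 19.7% against 12.8 to 16.8%. These shares rest on 4039 to 9422 counts a dog and were not tested.

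Regulatory subunits bind the kinases and place them at receptors. PIK3R1, which encodes p85 alpha, was the most abundant of them and had 378, 540.0, 265, 224 and 194 CPM in obese dogs 1 to 5 and 268, 273 and 203 CPM in normal dogs 1 to 3. Its highest values were in obese dogs 1 and 2 and its lowest in obese dog 5, so the obese group alone spanned the whole range (log2 fold change 0.37, adjusted p = 0.644, edgeR). Leaving out obese dog 2 gave 0.09, and leaving out normal dog 3 gave 0.22. PIK3R5, the p101 partner of the gamma isoform, ran from 158 to 247 CPM with overlapping groups, although PIK3CG itself differed more than 5-fold between its lowest and highest dog. PIK3R4, the scaffold of the class III kinase in autophagy and vesicle traffic, had 42.3 ± 14.6 against 56.7 ± 4.22 CPM, with its highest value in obese dog 3 at 65.0 CPM. Its log2 fold change was −0.42 (adjusted p = 0.511, edgeR) and −0.67 without obese dog 3 (adjusted p = 0.104, edgeR). PIK3R2, or p85 beta, was near the lower limit of measurement, with 6 to 116 counts a library. In normal dog 2 it had 0.664 CPM with a 95% Poisson interval of 0.244 to 1.45 CPM, which covers counting error only.

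PDPK1 encodes PDK1, the kinase that activates AKT. It differed little, with 111 ± 21.0 against 108 ± 12.6 CPM (log2 fold change 0.05, standard error 0.23). AKT1 had 36.7, 56.0, 17.2, 57.4 and 45.3 CPM in obese dogs 1 to 5 and 28.3, 25.8 and 26.6 CPM in normal dogs 1 to 3. The 3 normal dogs lay within 3 CPM of each other, with 4 obese dogs above them and obese dog 3 below (log2 fold change 0.66, adjusted p = 0.412, edgeR). Without obese dog 3 the value was 0.83 and still short of the threshold (adjusted p = 0.0556, edgeR). AKT2, the isoform best known from insulin-responsive tissue, had 2.25 to 5.68 CPM and 4.81 to 14.6% of the AKT1 and AKT2 counts in the obese dogs, against 7.37 to 17.6% in the normal dogs.

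The phosphatases that oppose the pathway included its most abundant transcripts. INPP5D encodes SHIP1, which removes a phosphate from the lipid product of PI3K in blood cells, and had the highest median of the 34 genes. It had 489, 426, 395, 365 and 385 CPM in obese dogs 1 to 5 and 267, 333 and 235 CPM in normal dogs 1 to 3. Every obese dog, dog 3 included, was above every normal dog, by a margin that was narrow between obese dog 4 and normal dog 2. The means were 412 ± 48.3 CPM (SD, n = 5) against 278 ± 49.6 CPM (SD, n = 3) and the difference did not pass (log2 fold change 0.57 with a standard error of 0.23, adjusted p = 0.276 by edgeR), with 0.55 without obese dog 3.

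INPP4B acts one step later on the same lipids and had 647, 789, 193, 373 and 604 CPM in obese dogs 1 to 5 and 274, 238 and 218 CPM in normal dogs 1 to 3. Obese dog 3 had the lowest value of all dogs, and the other obese dogs lay above every normal dog. The means were 521 ± 237 CPM (SD, n = 5) against 243 ± 28.3 CPM (SD, n = 3), a positive value that did not pass (log2 fold change 1.10 with a standard error of 0.42, adjusted p = 0.253 by edgeR). Without obese dog 3, INPP4B rose by 1.28 on the log2 scale (adjusted p = 0.0247, edgeR). PHLPP1 and PHLPP2, which dephosphorylate AKT itself, had 55.4 ± 7.87 against 59.8 ± 9.01 CPM and 34.8 ± 4.10 against 38.5 ± 3.02 CPM, with adjusted p-values of 0.846 and 0.779 (edgeR).

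**Figure D3:**
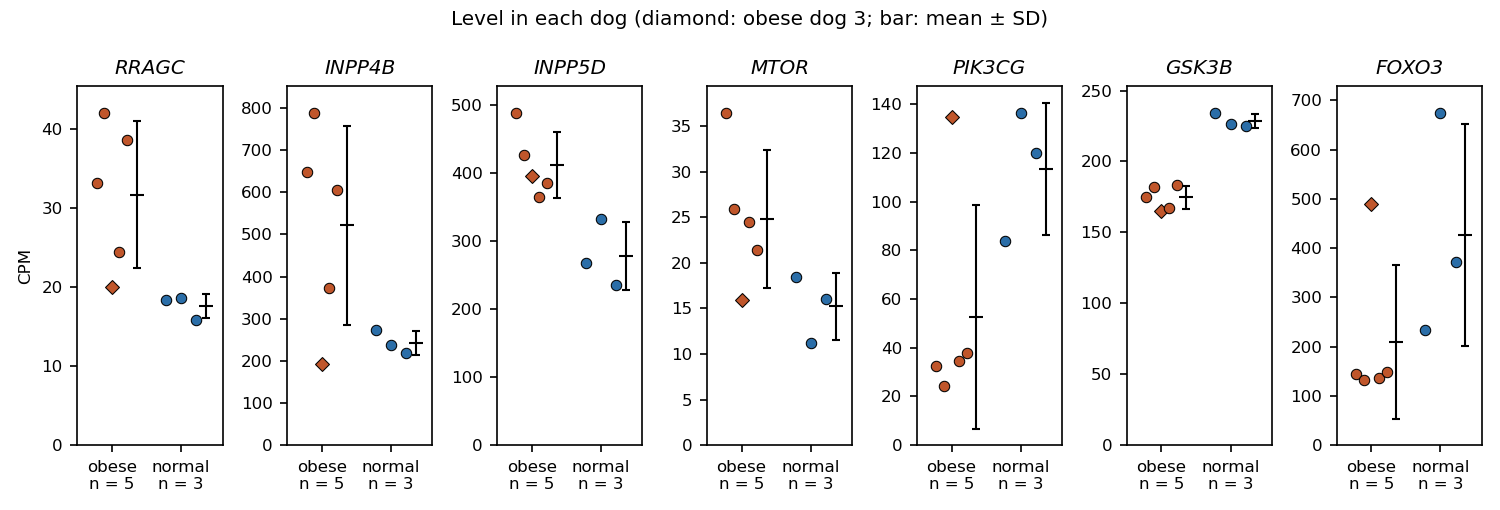
CPM (y axis, from 0) of 7 genes in each of the 5 obese (orange) and 3 normal (blue) dogs, with the mean and SD of each group as bars and obese dog 3 as a diamond. RRAGC, INPP5D and GSK3B separate the groups in all dogs, and in INPP4B, MTOR, PIK3CG and FOXO3 the diamond lies among or beyond the normal dogs.

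TSC1 and TSC2 form the complex that holds RHEB off. TSC1 had 34.5 ± 4.86 against 34.2 ± 3.87 CPM. Its log2 fold change was 0.01 (standard error 0.23), and the sign turned with DESeq2 size factors (−0.0014) and upper-quartile scaling (−0.11). TSC2 was lower in level at 7.66 to 14.7 CPM, with a log2 fold change of 0.38 (adjusted p = 0.571, edgeR). RHEB had 111, 100.3, 34.8, 132 and 128 CPM in obese dogs 1 to 5 and 67.7, 74.4 and 82.0 CPM in normal dogs 1 to 3. Obese dog 3 had the lowest value, under any normal dog, and the other obese dogs lay above the normal range (log2 fold change 0.44, adjusted p = 0.607, edgeR, and 0.62 without obese dog 3).

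All 5 measured genes of the mTOR complexes had positive fold changes under each of the 3 scalings tried, and none passed in edgeR with all dogs, while RPTOR passed with limma-voom. MTOR, the kinase of both complexes, had 36.5, 25.9, 15.9, 24.5 and 21.4 CPM in obese dogs 1 to 5 and 18.5, 11.2 and 16 CPM in normal dogs 1 to 3. Obese dog 3 lay among the normal dogs and the other obese dogs above them (log2 fold change 0.70 with a standard error of 0.33, adjusted p = 0.331 by edgeR). The MTOR value was 0.79 without obese dog 3 (adjusted p = 0.114, edgeR). RPTOR, the subunit that defines mTOR complex 1 and binds its substrates, had 97.8, 106, 31.0, 110.2 and 102 CPM in obese dogs 1 to 5 and 69.3, 52.1 and 52.3 CPM in normal dogs 1 to 3. In obese dog 3 the level of RPTOR was under that of each normal dog, while the other obese dogs lay within 13 CPM of each other. With all dogs the log2 fold change was 0.63 (adjusted p = 0.454, edgeR), and without obese dog 3 RPTOR rose by 0.81 (adjusted p = 0.0393, edgeR).

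RICTOR, which defines mTOR complex 2, was more abundant than RPTOR and had 275 ± 46.8 against 226 ± 14.4 CPM, with its highest value in obese dog 3 at 327 CPM. It overlaps 2 uncharacterised genes with 21099 and 4168 counts over the libraries, against 26933 of its own. MLST8, a subunit of both complexes, had only 7 to 112 counts a library, and in obese dog 3 it had 0.794 CPM (95% Poisson interval 0.319 to 1.64 CPM). BRICD5, which overlaps MLST8, had 458 counts against its 432, so that its values are uncertain. PIK3CB, TSC1, DEPTOR and RPS6KB1 also overlap genes with 1476 to 3332 counts over the libraries. DEPTOR, an inhibitor of mTOR, had 23.1 ± 8.34 against 16.5 ± 2.95 CPM (adjusted p = 0.535, edgeR).

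RAG GTPases bring mTOR complex 1 to the lysosome when amino acids are present. RRAGC had the smallest p of the 34 genes, with 33.2, 42.1, 20.1, 24.4 and 38.7 CPM in obese dogs 1 to 5 and 18.3, 18.6 and 15.9 CPM in normal dogs 1 to 3. The 5 obese dogs all lay above the normal dogs, with obese dog 3 only just above. The means were 31.7 ± 9.32 CPM (SD, n = 5) against 17.6 ± 1.5 CPM (SD, n = 3), and the difference did not pass (log2 fold change 0.85 with a standard error of 0.30, adjusted p = 0.236 by edgeR). It was 0.94 without obese dog 3, at the edge of the threshold (adjusted p = 0.0505, edgeR). RRAGA, its partner in the dimer, had 30.3 ± 10.5 against 21.4 ± 10.4 CPM with overlapping groups and a log2 fold change of 0.50, which was 0.33 without obese dog 1, 0.97 without normal dog 1 and 0.21 without normal dog 2. DEPDC5, a subunit of the GATOR1 complex that turns RAG GTPases off, had 13.4 to 31.9 CPM, and its fold change of 0.09 turned to −0.05 with upper-quartile scaling.

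Among substrates of mTOR complex 1, RPS6KB1 encodes the S6 kinase and had 135 ± 25.5 against 118 ± 22.3 CPM (adjusted p = 0.743, edgeR). EIF4EBP1 and EIF4EBP2 encode repressors of cap-dependent translation that mTOR inactivates. EIF4EBP1 had 21.2, 16, 70.4, 32.6 and 20.7 CPM in obese dogs 1 to 5 and 17.2, 39.0 and 38.4 CPM in normal dogs 1 to 3. Its highest value was in obese dog 3, and normal dog 1 lay among the low obese dogs rather than with the other normal dogs. The log2 fold change of EIF4EBP1 was 0.03 with all dogs, −0.51 without obese dog 3 and −0.09 with upper-quartile scaling, and none of these passed. EIF4EBP2 was more even, at 39.5 to 56.0 CPM, with a log2 fold change of 0.05 that was −0.07 with upper-quartile scaling. As a share of both, EIF4EBP1 took 64.1% of counts in obese dog 3 and 24.1 to 41.5% in the other obese dogs, and 24.7, 46.2 and 49.1% in normal dogs 1, 2 and 3.

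GSK3 kinases are inhibited by AKT. GSK3B had 175, 182, 165, 167 and 184 CPM in obese dogs 1 to 5 and 234, 226 and 225 CPM in normal dogs 1 to 3. All obese dogs lay below all normal dogs, and both groups were tight. The means were 175 ± 8.42 CPM (SD, n = 5) against 229 ± 5.17 CPM (SD, n = 3), a small difference that did not pass (log2 fold change −0.39 with a standard error of 0.19, adjusted p = 0.354 by edgeR) and that differed little without obese dog 3 (−0.40). Obese dog 3 had the lowest GSK3B value but was not set apart from the other obese dogs. GSK3A had 14.6 to 68.3 CPM, with its highest and lowest values both in obese dogs (dogs 3 and 5) and a log2 fold change of −0.10.

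FOXO factors hold lymphocytes quiescent and regulate survival and metabolic genes when AKT is inactive. FOXO3 had 144, 131, 489, 136 and 148 CPM in obese dogs 1 to 5 and 233, 675 and 372 CPM in normal dogs 1 to 3. Obese dog 3 lay between normal dogs 2 and 3, and the other 4 obese dogs lay within 18 CPM of each other and below all normal dogs. FOXO3, the gene next in p after the 6 named by rule and described in full after its values were seen, had means of 209.6 ± 156 CPM (SD, n = 5) against 427 ± 226 CPM (SD, n = 3) (log2 fold change −1.03 with a standard error of 0.50, adjusted p = 0.360 by edgeR). Without obese dog 3, FOXO3 fell by 1.64 on the log2 scale (adjusted p = 0.0153, edgeR). The value was −0.56 without normal dog 2 (adjusted p = 0.816, edgeR), the dog with the highest level.

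FOXO1, the main FOXO factor of naive lymphocytes, had 136, 214, 105, 152 and 175 CPM in obese dogs 1 to 5 and 119, 73.1 and 135 CPM in normal dogs 1 to 3. Obese dog 3 lay below normal dogs 1 and 3, and obese dog 1 was level with normal dog 3 (log2 fold change 0.52, adjusted p = 0.429, edgeR). The value was 0.27 without normal dog 2, the dog with the lowest level (adjusted p = 0.844, edgeR). FOXO4 was weaker, at 5.90 to 19.8 CPM, with a log2 fold change of −0.64 (adjusted p = 0.428, edgeR). Unlike FOXO3, it had its lowest value in obese dog 3. Of the summed FOXO1, FOXO3 and FOXO4 counts, FOXO3 made up 49.0, 36.7, 81.6, 44.8 and 44.9% in obese dogs 1 to 5 and 63.7, 87.9 and 71.0% in normal dogs 1 to 3. FOXO1 was the larger part in obese dogs 2, 4 and 5, and FOXO3 in obese dogs 1 and 3 and in all normal dogs. The plot of shares shows larger parts of PIK3CG and of FOXO3 in obese dog 3 and the normal dogs than in the other obese dogs. The leading gene did not change in the same dogs. In obese dog 1 and normal dog 1, PIK3CD exceeded PIK3CG but FOXO1 did not exceed FOXO3.

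**Figure D4:**
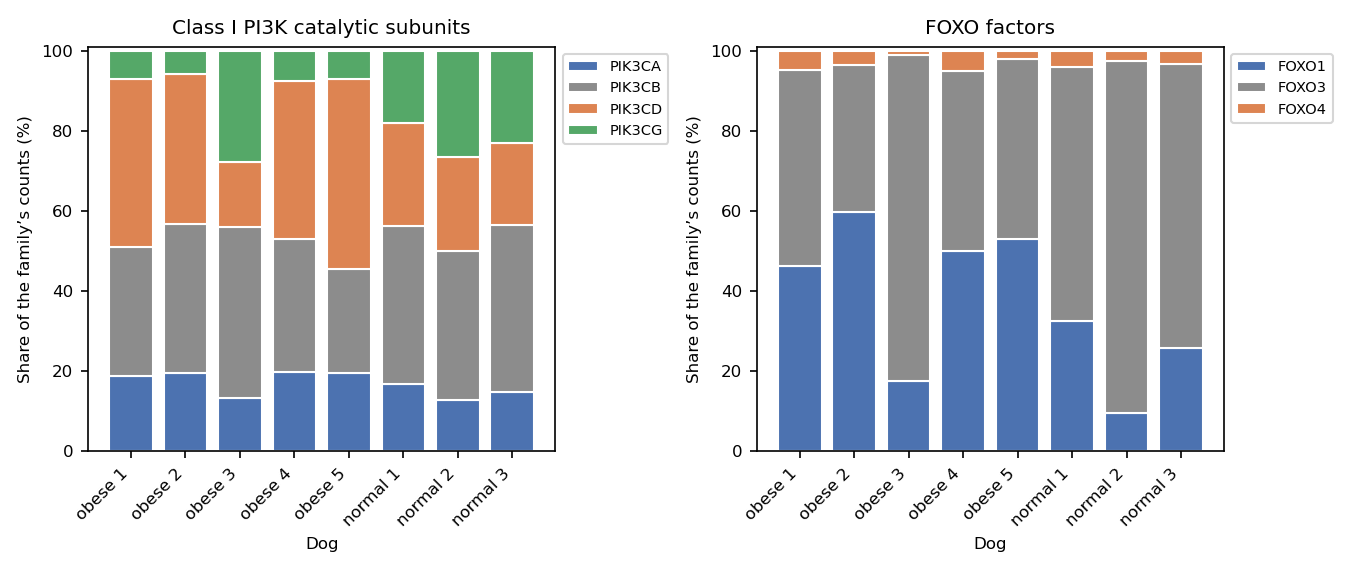
Share of each gene (%) in the summed counts of the 4 class I catalytic subunits (left) and of the 3 FOXO factors (right), 1 stacked bar for each of the 8 dogs. In obese dog 3, PIK3CG takes 27.8% and FOXO3 81.6%, against 5.64 to 7.46% and 36.7 to 49.0% in the other obese dogs.

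Some of the measured genes had the same highest dogs as sums of cell type markers. The summed neutrophil markers were 1001, 247, 7191, 351 and 260 CPM in obese dogs 1 to 5 and 1727, 7020 and 4466 CPM in normal dogs 1 to 3. The 4 dogs with the highest sums were obese dog 3 and the 3 normal dogs. These 4 dogs were also the highest for FOXO3, PIK3CG, PIK3CB, PIK3R4 and PHLPP2. How many of all genes shared these 4 highest dogs was not counted. With obese dog 3 left out, 12.8% of all genes were lower without overlap in the obese dogs. That condition is looser, as it leaves the place of obese dog 3 open. S100A8, S100A9, S100A12 and CSF3R, which monocytes express too, gave most of the sum in those 4 dogs. Of the 10 neutrophil markers 4 had positive and 6 negative fold changes, from −1.74 to 2.11 on the log2 scale, and 0 had an unadjusted p under 0.05 (edgeR). LTF and CAMP were highest in obese dog 1, at 156 and 126 CPM. The summed monocyte markers were 1144, 870, 1809, 1135 and 1104 CPM in obese dogs 1 to 5 and 2571, 2965 and 1878 CPM in normal dogs 1 to 3. They did not overlap between the groups, by a narrow margin between obese dog 3 and normal dog 3, and their 4 highest dogs were the same. VCAN gave 920.0 to 2191 CPM of these sums in the normal dogs, while CD14 and CSF1R overlapped between the groups. CYBB was higher without overlap in the obese dogs (14.8 to 23.1 against 9.85 to 13 CPM), and 5 of the 9 monocyte markers had positive fold changes (median 0.05 on the log2 scale).

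The 12 T cell markers summed to 1046, 1296, 477, 1153 and 1547 CPM in obese dogs 1 to 5 and 465, 397 and 376 CPM in normal dogs 1 to 3. Their 4 highest dogs, obese dogs 1, 2, 4 and 5, were the 4 highest for PIK3CA, PIK3CD, AKT1, INPP4B, RHEB, MTOR, RPTOR, RRAGC and FOXO1. No other measured gene had these 4 dogs as its highest. FOXO1 had them only by 135.8 CPM in obese dog 1 against 135.3 CPM in normal dog 3. In GSK3B and INPP5D obese dog 3 lay with the other obese dogs. The share of all genes with these 4 highest dogs was not counted. With obese dog 3 left out, 12.2% of all genes were higher without overlap in the obese dogs, again the looser condition. Of the 12 T cell markers all had positive fold changes, with a median log2 fold change of 1.21, and 10 had an unadjusted p under 0.05 (edgeR). Summed platelet markers were 74.7 to 1541 CPM in the obese and 10.6 to 36.4 CPM in the normal dogs, and summed plasma cell markers 138 to 259 and 321 to 1147 CPM, without overlap in either list. Summed B cell markers (60.7 to 290 and 59.4 to 124 CPM) and NK cell markers (59.7 to 161 and 66.5 to 110 CPM) overlapped. The part of cell composition in the differences described here was not tested.

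**Figure D5:**
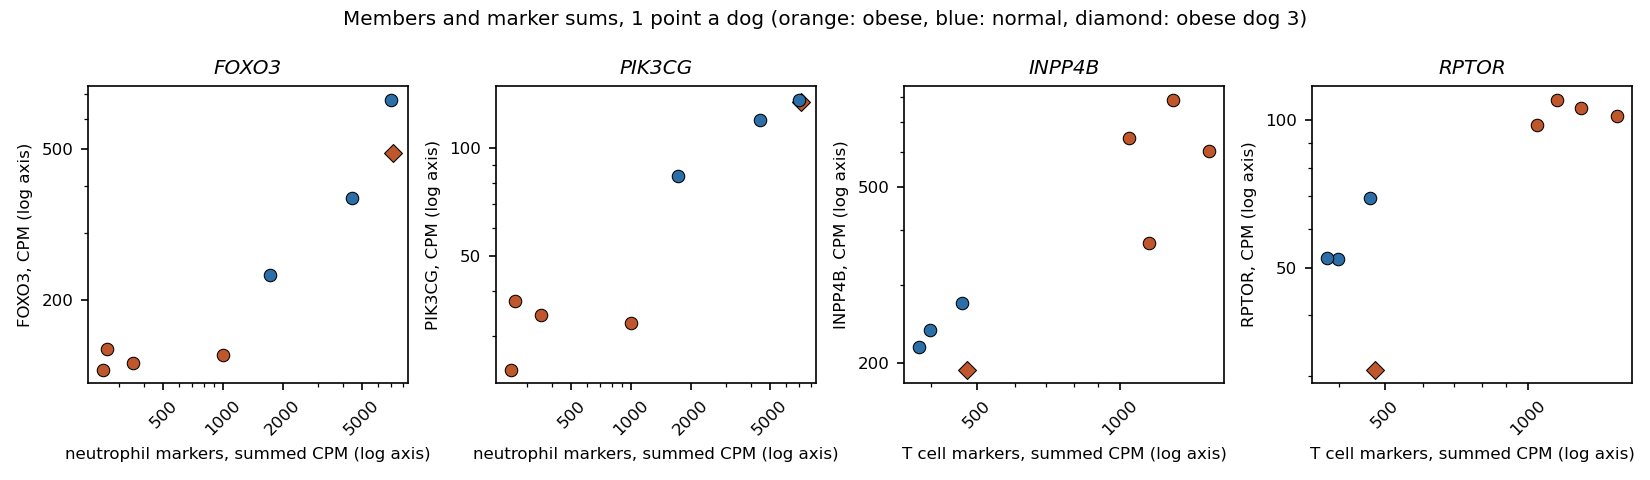
FOXO3 and PIK3CG (CPM, log axis) against the summed neutrophil markers, and INPP4B and RPTOR against the summed T cell markers (CPM, log axis), 1 point for each of the 5 obese (orange) and 3 normal (blue) dogs. Obese dog 3 (diamond) lies with the normal dogs in each panel or, for INPP4B and RPTOR, below them.

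Of 56 listed genes, which were chosen with earlier results of these data known, all were tested. Their median log2 fold change was 0.22, 34 were positive, and 0 passed (edgeR), with 6 higher and 4 lower at an unadjusted p under 0.05, beside 9.01% and 6.73% of all genes. With obese dog 3 left out, 5 of 56 passed (SGK1, SGK3, PRR5L, INPPL1 and PIK3C2B, named after their values were seen), where 3.25% of all genes were higher and 5.03% lower. With all dogs DESeq2 called 1 of 56 (2.97% and 2.11% of all genes) and limma-voom 10 (9.15% and 9.96%). Without overlap, 3 of 56 were higher and 1 was lower, beside 5.75% and 5.16% of all genes. PIK3IP1, a membrane inhibitor of PI3K, had 18.3, 30.5, 31.2, 19.5 and 36.3 CPM in obese dogs 1 to 5 and 14.7, 13.9 and 5.80 CPM in normal dogs 1 to 3. Every obese dog was above every normal dog (log2 fold change 1.24 with a standard error of 0.39, adjusted p = 0.192 by edgeR). INPPL1, or SHIP2, had 106 ± 21.8 against 65.5 ± 7.66 CPM, and obese dog 3, at 71.1 CPM, was barely above normal dog 2 at 70.4 CPM. WDR59, of the GATOR2 complex, had 21.2 ± 4.14 against 12.4 ± 2.18 CPM (adjusted p = 0.240, edgeR). FNIP1, a folliculin partner that acts on RRAGC, had 322, 282, 307, 255 and 221 CPM in obese dogs 1 to 5 and 371, 507 and 429 CPM in normal dogs 1 to 3. All obese dogs lay below all normal dogs, opposite to RRAGC (log2 fold change −0.65 with a standard error of 0.23, adjusted p = 0.228 by edgeR).

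Known FOXO target genes were listed as a readout that the pathway genes themselves do not give. Of 20 genes 18 were tested. RAG1 had too few counts, and S1PR1 had no row under that symbol. The median log2 fold change was 0.43, 11 were positive, and 0 passed (edgeR), with 5 higher and 3 lower at an unadjusted p under 0.05, beside the same 9.01% and 6.73%. With obese dog 3 left out, 6 of the 18 passed (3.25% and 5.03% of all genes). With all dogs DESeq2 called 4 (2.97% and 2.11%) and limma-voom 9 (9.15% and 9.96%). Without overlap 4 were higher, PIK3IP1 among them, and 1 was lower, beside 5.75% and 5.16% of all genes. IL7R, the interleukin 7 receptor of T cells, had 409, 267, 123, 263 and 323 CPM in obese dogs 1 to 5 and 87.5, 92.6 and 46.2 CPM in normal dogs 1 to 3. Every obese dog was above every normal dog, with obese dog 3 the lowest of them (log2 fold change 1.88 with a standard error of 0.41, adjusted p = 0.0932 by edgeR). CCR7, the homing receptor of naive T cells, had 66.2 ± 18.2 against 27.3 ± 12 CPM (adjusted p = 0.147, edgeR). In obese dog 3 it had 41.7 CPM against 41.1 CPM in normal dog 1. CDKN1B, the cell cycle inhibitor p27, had 7.44 ± 2.49 against 2.14 ± 1.05 CPM (adjusted p = 0.159, edgeR). TRIB1, a pseudokinase of myeloid cells, had 62.6, 31.1, 212, 70.5 and 50.9 CPM in obese dogs 1 to 5 and 257, 911 and 389 CPM in normal dogs 1 to 3. It was lower without overlap (log2 fold change −2.60 with a standard error of 0.61, adjusted p = 0.110 by edgeR), with its highest obese value in dog 3, as for FOXO3. IL7R and CCR7 are also T cell genes, in libraries where the T cell marker sums did not overlap between the groups. The margin of these sums was narrow, at 477 CPM in obese dog 3 and 465 CPM in normal dog 1.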

How the data were processed

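Peripheral blood mononuclear cell RNA of 8 dogs was measured with Lexogen QuantSeq 3′ tag libraries from 500 ng of total RNA, per the labels' protocols. The authors deposited 1 table of whole-number counts per gene symbol for each dog, not normalized. Bowtie2 and bedtools were used, per the submitters' processing notes. No source used here gives their versions, the genome build, the annotation or the strand setting. Of rows that repeat a symbol (411), the one with the highest mean kept the symbol. Groups came from the labels. No 2 libraries agreed within sampling noise (lowest chi-square per degree of freedom 35.9).

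The count test was edgeR 4.0.16 in R 4.3.3 (filterByExpr by group, TMM scaling, glmQLFit and glmQLFTest, robust), with Benjamini-Hochberg adjustment over all genes tested and a threshold of 0.05. Standard errors were derived from the fold change and its F statistic. The edgeR step was tested on simulated data. Alternatives were DESeq2 1.42.0 (size factors, and its Wald test), upper-quartile factors, limma 3.58.1 voom with quality weights, no filter, at least 1 CPM in 3 libraries, leaving out each dog, and the replicate number as a block. Totals of 10264202 to 14910982 counts set the precision, and intervals are exact 95% Poisson intervals.

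The members and the lists of other genes and cell markers were chosen with earlier results of these data known. Genes given in full were those past the threshold or without overlap and the 6 with the smallest p, and FOXO3 was added after its values were seen. From the other lists, up to 4 genes that passed or did not overlap were named. All 34 genes were found among the RefSeq genes of UU_Cfam_GSD_1.0, used for names and overlaps only, and 15 overlapped a gene with at least 10 counts. Levels are CPM on TMM-scaled library sizes.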

Additional observations from a re-analysis of the deposited data

Results flagged for a closer look

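In 4 of the 34 genes, 1 obese dog lay far from the other 4, by the gap to its nearest neighbour divided by the range of the group. It was obese dog 3 each time. PIK3CB had 206 CPM there against 142 to 160 CPM in the other obese dogs, PIK3CG had 135 CPM against 24.2 to 37.6 CPM, and FOXO3 had 489 CPM against 131 to 148 CPM. RPTOR had 31.0 CPM against 97.8 to 110.2 CPM. Chance flags about 1 in 20 groups, and 16.2% of all genes tested were flagged the same way, against 11.8% of these 34.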

How the results depend on the processing

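Of 544 values of the 34 genes under the alternatives, 494 kept their direction and their side of the threshold, 13 passed it (9 with limma-voom and quality weights, 4 without obese dog 3) and 37 changed sign. The cause of these changes was not tested. Counts of all genes higher and lower were 10 and 38 with all dogs, 612 and 434 with DESeq2's Wald test, and 1887 and 2055 with limma-voom. With limma-voom 6 of the 34 genes were higher and 3 lower, beside 9.15% and 9.96% of all genes. It also called 10 other pathway genes and 9 FOXO target genes. DESeq2 called 1 other pathway gene and 4 FOXO target genes, beside 2.97% of all genes higher and 2.11% lower. Leaving out 1 dog gave 0 to 661 genes higher and 2 to 1023 lower, 0 to 2 of the 34 higher and 0 to 2 lower, 2 to 9 higher without overlap and 1 to 6 lower, 0 to 5 other pathway genes and 0 to 6 FOXO target genes, with each of the highest counts without obese dog 3. Without obese dog 3, 12.2% of all genes were higher without overlap and 12.8% lower. With upper-quartile scaling 0 of the 34 were higher without overlap, beside 4.39% of all genes. The median of all genes moved from 0.09 to −0.03.

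Replicate numbers are shared by the labels of both groups, but they name different dogs, and deviations of same-numbered dogs correlated at −0.029, −0.21 and 0.0055. With the replicate number as a block on dogs 1 to 3 of each group, 0 genes were higher and 0 lower, as on the same 6 dogs without the block, where 3 of the 34 genes had an unadjusted p under 0.05, and 0 with it. Under the block RHEB was −0.0211, MLST8 −0.16, DEPDC5 −0.21, EIF4EBP1 −0.0261, EIF4EBP2 −0.0272 and GSK3A 0.15, and on those dogs without it, a fit added after the data were seen, DEPDC5 was −0.18, EIF4EBP2 −0.0330 and GSK3A 0.25.

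Other changes of sign were as follows. TSC1 was −0.0014 with DESeq2 size factors, −0.11 with upper-quartile factors, −0.0064 with limma-voom and −0.00074 with at least 1 CPM in 3 libraries. With upper-quartile factors PDPK1 was −0.0707, DEPDC5 −0.0454, EIF4EBP1 −0.0908 and EIF4EBP2 −0.0718, with limma-voom EIF4EBP1 was −0.42, and with no filter AKT2 was 0.0095. Leaving out 1 dog gave ranges of −0.10 to 0.12 for PDPK1, −0.31 to 0.27 for AKT2, −0.11 to 0.0840 for TSC1, −0.0216 to 0.89 for MLST8, −0.03 to 0.21 for DEPDC5, −0.51 to 0.20 for EIF4EBP1, −0.0694 to 0.17 for EIF4EBP2 and −0.53 to 0.10 for GSK3A. PIK3R2, MLST8 and AKT2 are limited by depth.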
